A study of Bos taurus with 20 samples.

Results

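bta-miR-9-5p, bta-miR-9-3p, bta-miR-124a, bta-miR-124b, bta-miR-137 and bta-miR-138, which are known from brain, and bta-miR-122, bta-miR-192, bta-miR-194 and bta-miR-215, which are known from liver and gut, were examined in bull spermatozoa. They were taken by name, and all 10 were among the 1029 miRNAs of the deposited table. The rows of bta-miR-124a and bta-miR-124b held the same value in all 20 bulls, so the 10 names give 9 distinct profiles, and these 2 miRNAs are treated as 1 below. Both sets were present in sperm, and bta-miR-192, bta-miR-9-3p, bta-miR-122, bta-miR-194 and bta-miR-9-5p were among the 80 most abundant miRNAs. No difference between bulls of high and low fertility passed the test for any of the 10. In 2 of the low fertility bulls, however, bta-miR-122 was 15.9-fold and 10.6-fold lower than the median of the other 18 bulls.

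Small RNA was sequenced from frozen-thawed spermatozoa of 20 mature Holstein-Friesian bulls, with 1 library per bull. 10 bulls had a high (HF) and 10 a low (LF) fertility score, adjusted for herd, cow and service effects, and no animal received a treatment. Each library came from pooled straws of several ejaculates of a bull, and the pool was treated to lyse somatic cells before RNA extraction, so differences between ejaculates of a bull cannot be seen. The semen came from 2 AI centers, and the center of a bull is not given in the sources used here. Bulls are named below by their labels, H for HF and L for LF. The libraries held between 103204 and 3097581 reads on miRNAs, with a median of 1092881, and the shallowest were H17 and L11. A level is given as a normalized count, meaning reads scaled to library size and to a TMM factor, as in CPM. The miRNAs known from male germ cells were high in every bull, with bta-miR-34c at 21226 or more, bta-miR-449a at 3552 or more and bta-miR-34b at 995 or more. All 3 were lowest in L11.

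miRNAs are short RNAs cut from a hairpin precursor, and either arm of the hairpin (5p or 3p) can be loaded into the silencing complex, where the bases near its start, the seed, select the target mRNAs. miR-9, miR-124, miR-137 and miR-138 are best known from neurons and their progenitors, where miR-124 holds down non-neuronal transcripts and miR-9 acts in the change from progenitor to neuron. miR-122 is the dominant miRNA of hepatocytes, and miR-192, miR-194 and miR-215 are typical of liver, intestine and kidney. miR-192 and miR-215 share a seed. In the ARS-UCD2.0 annotation MIR192 lies beside MIR194-2, and MIR215 lies beside MIR194-1. bta-miR-194 can therefore come from either of 2 loci, and bta-miR-9, bta-miR-124a and bta-miR-138 also have 2 genes each.

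Together, the 9 distinct profiles made up 0.776% ± 0.1496 (SD, n = 20) of the normalized counts in a library. The RNA comes from whole sperm samples, in which fewer cells of a type and less RNA per cell cannot be told apart. The brain-enriched miRNAs contributed 0.279% ± 0.0598 (SD, n = 20), and the liver- and gut-enriched miRNAs 0.496% ± 0.136 (SD, n = 20). The brain-enriched share had a mean of 0.269% ± 0.0640 in the 10 HF bulls and of 0.290% ± 0.0565 in the 10 LF bulls (SD). The liver and gut share averaged 0.502% ± 0.0925 in the HF group against 0.491% ± 0.174 in the LF group (SD, n = 10 each). The whole share ran from 0.676% to 0.921% in HF bulls and from 0.459% to 1.09% in LF bulls, with L7 and L11 lowest and L13 and L18 highest of all 20. Of the brain-enriched sum, bta-miR-9-3p gave 75.1% ± 3.65 (SD, n = 20) and bta-miR-9-5p 22.3% ± 3.70 (SD, n = 20). Of the liver and gut sum, bta-miR-192 gave 46.2% ± 9.24 (SD, n = 20) and bta-miR-215 only 0.179% ± 0.124 (SD, n = 20). The brain-enriched sum in sperm was thus nearly all miR-9.

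The levels were ordered by the mean over the 20 bulls on the log2(normalized count + 1) scale. The order was bta-miR-192, bta-miR-9-3p, bta-miR-122, bta-miR-194, bta-miR-9-5p, bta-miR-124a with bta-miR-124b, bta-miR-137, bta-miR-215 and bta-miR-138. Each neighbouring pair was compared within bulls with a two-sided permutation test that exchanged the 2 values of a bull, adjusted over the 8 pairs. 6 of the 8 pairs had an adjusted p under 0.05. The difference of 0.065 on the log2 scale between bta-miR-192 and bta-miR-9-3p did not exceed the spread between bulls (adjusted p = 0.71 in the permutation test, higher in 10 of 20 bulls). Neither did that of 0.26 between bta-miR-122 and bta-miR-194 (adjusted p = 0.41 in the permutation test, higher in 16 of 20 bulls). The widest step, 3.56 on the log2 scale, separated bta-miR-9-5p from bta-miR-124a in 20 of 20 bulls (adjusted p = 5.3e-05, from p = 2e-05, the smallest these permutations can give). No length correction was made, since mature miRNAs are of nearly equal length, and unequal capture of miRNAs by the library preparation was not tested.

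**Figure D1:**
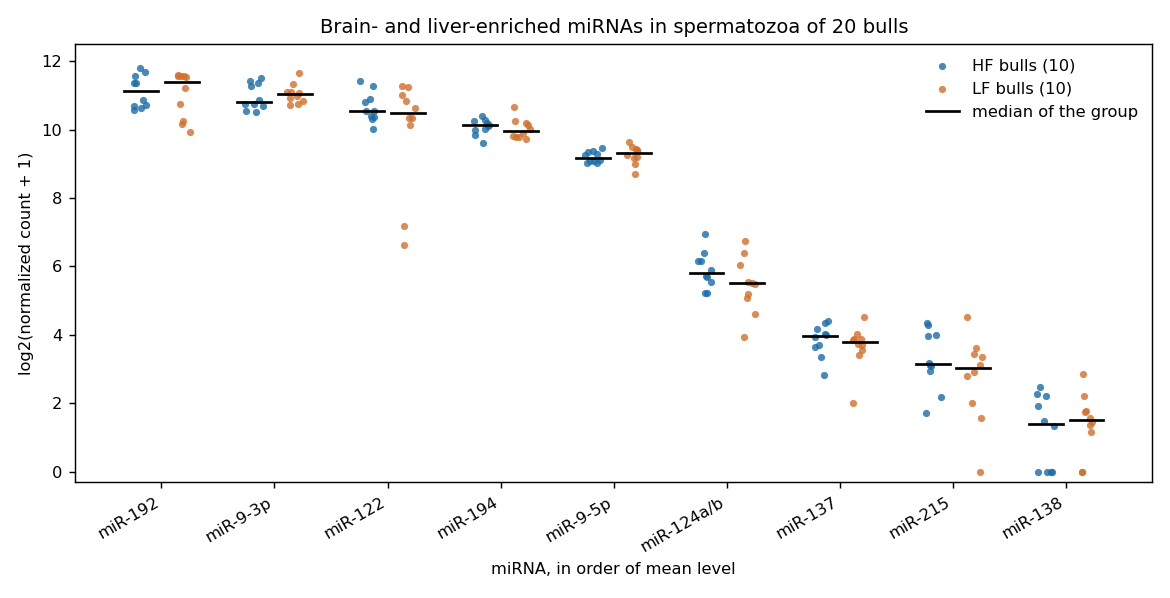
Levels of the 9 distinct profiles in 20 bulls. Each point is 1 bull (HF blue, LF orange), the y axis is log2(normalized count + 1), black bars are group medians, and the miRNAs run from the highest mean level to the lowest. The HF and LF points overlap for every miRNA, and the 2 low points of miR-122 are L7 and L11.

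Among the brain-enriched miRNAs, bta-miR-9-3p had a median of 1786 in HF bulls, from 1455 in H12 to 2906. In LF bulls its median was 2092, from 1670 to 3249 in L18. It ranked 45 of 1029 miRNAs by mean level. bta-miR-9-5p, from the other arm of the same hairpins, had a median of 581 in HF bulls, from 515 to 705. In LF bulls its median was 635, from 414 in L11 to 793 in L18. It was one of the steadiest miRNAs across bulls, with an SD of 0.22 on the log2(normalized count + 1) scale. Among the 158 miRNAs with at least 10 reads in every bull, whose median SD was 0.44, it ranked 156 from the most variable.

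The 3p arm exceeded the 5p arm in 20 of 20 bulls. The normalized count of bta-miR-9-3p was between 2.41 and 4.89 times that of bta-miR-9-5p, with a median of 3.35. L11 had the widest excess of the 3p arm and H16 the narrowest. The log2 ratio of bta-miR-9-5p to bta-miR-9-3p averaged -1.76 ± 0.32 in HF against -1.78 ± 0.32 in LF bulls (SD, n = 10 each). These means were 0.024 apart, less than the SD within either group (p = 0.87 by a two-sided permutation test, adjusted p = 0.87 over 3 ratios).

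**Figure D2:**
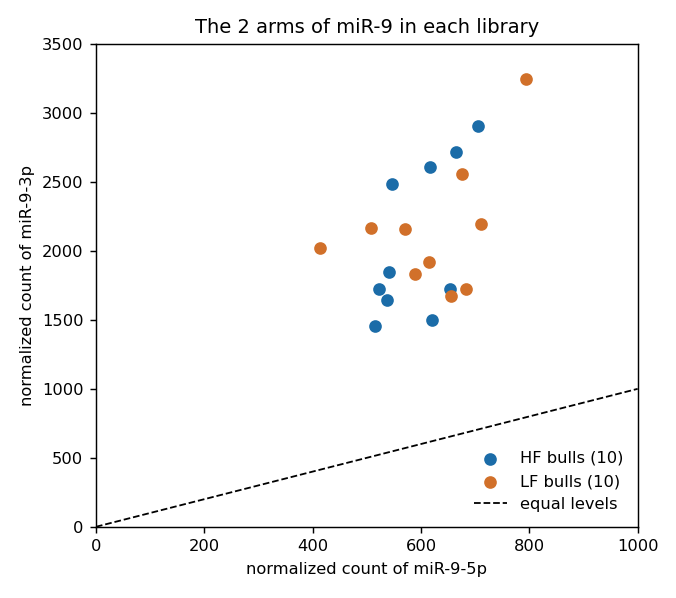
The 2 arms of miR-9 in each library. The x axis is the normalized count of miR-9-5p, the y axis that of miR-9-3p, each point is 1 bull, and the dashed line marks equal levels. All 20 bulls lie above the line, at 2.41 to 4.89 times as much of the 3p arm.

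bta-miR-124a and bta-miR-124b, treated as 1, had a median of 55.0 in HF bulls, from 36.2 in H16 to 123.6 in H9. In LF bulls the median was 44.5, from 14.3 in L5 to 107 in L4. The highest bull was 8.63 times the lowest, against 1.92 times for bta-miR-9-5p. These values rest on 9 to 139 reads per library. bta-miR-137, which acts in neural progenitors, was counted in every library, but with a median of only 14 reads. Its median level was 14.8 in HF bulls, from 6.13 in H6 to 20.3 in H2. In LF bulls it was 13.0, from 3.01 in L7 to 22.1 in L13. bta-miR-138, which acts at the synapse, was at the limit of what these libraries can show. It had a read in 6 HF and 8 LF libraries and at most 7 reads in any. A floor of 3 reads corresponds to a normalized count of 1.19 in the deepest and 27.6 in the shallowest library (counting error only), so its absence from 6 libraries was not distinguishable from a low level.

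Among the liver- and gut-enriched miRNAs, bta-miR-122 had a median of 1504 in HF bulls, from 1037 in H9 to 2758 in H15. In LF bulls its median was 1443, from 97.3 in L7 to 2492 in L4. L7 and L11, at 97.3 and 145, stood apart from the other 18 bulls, of which the lowest was at 1037 and the median at 1545. That median was 15.9 times the level of L7 and 10.6 times that of L11. The counts behind the low values were 97 reads in L7, with an exact 95% Poisson interval of 78.7 to 118 reads, and 47 reads in L11, with an interval of 34.5 to 62.5 reads. On the scale of normalized counts these intervals ended at 119 and 193, well under the lowest of the other bulls. They cover counting error only. L11 was a shallow library with 310186 reads, whereas L7 was close to the median with 1014269, and the shallowest library of all, H17, had bta-miR-122 at 1801.

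**Figure D3:**
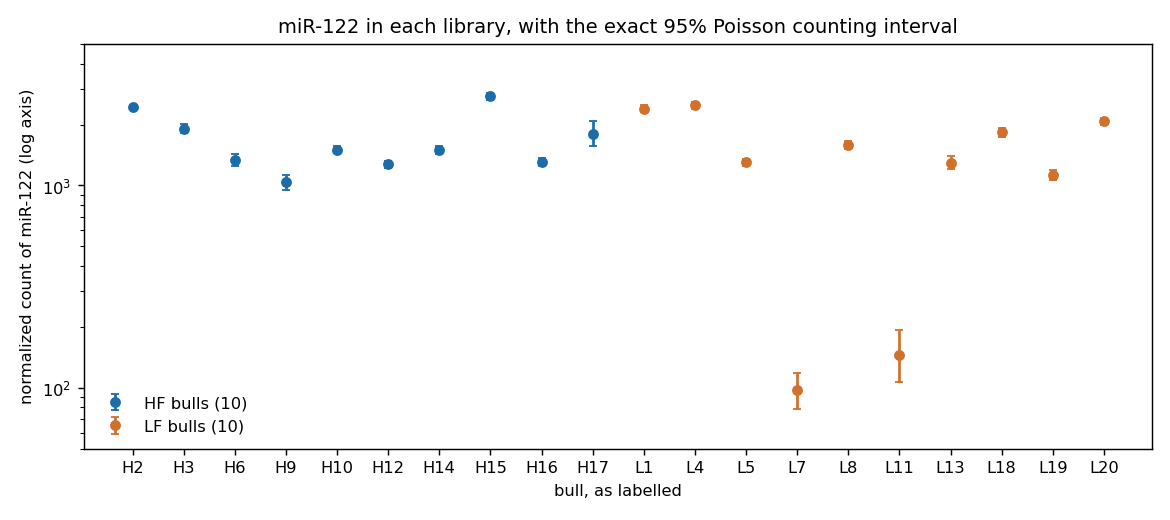
miR-122 in each library. The x axis lists the bulls as labelled, the y axis is the normalized count on a log scale, and the bars are exact 95% Poisson intervals, which cover counting error only. L7 and L11 sit at 97.3 and 145 and the other 18 bulls between 1037 and 2758.

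The drop in L7 and L11 was set beside the rest of the table. Of the 158 miRNAs with at least 10 reads in every bull, 6 were lower in both L7 and L11 than in each of the other 18. For bta-miR-122 the gap between the lowest of the 18 and the higher of the pair was 2.83 on the log2(normalized count + 1) scale. The next widest gap was 0.39, for bta-miR-1306. This pair of bulls was singled out after its values were seen. With all 20 bulls the SD of bta-miR-122 was 1.24 on the log2 scale, the fourth highest of the 158. Without L7 and L11 it was 0.43, close to the median SD of 0.43 for the 158 in the same 18 bulls. Other members were also low in this pair, but by less. bta-miR-192 was at 1213 in L7 and 964 in L11, against a median of 2637 in the other 18, and bta-miR-194 was at 846 and 877, against 1113. bta-miR-9-3p, at 1836 and 2023, and bta-miR-124a, at 82.3 and 64.9, were not low in either. bta-miR-9-5p was lowest of all 20 in L11, at 414, and at 589 in L7, against a median of 618 in the other 18. bta-miR-137 was lowest in L7, at 3.01, and at 12.4 in L11, against 13.8. On few reads, bta-miR-215 was at 3.01 and 0, against 7.88, and bta-miR-138 at 0 and 6.18, against 1.77. Of the marker sums for other cell types, blood (5 miRNAs) ran from 49.2 in L7, the lowest, to 298, epithelium (5 miRNAs) from 16912 to 27394 in L7, the highest, and muscle (4 miRNAs) from 101 to 1978 in L4. The blood miRNAs did not all go 1 way. bta-miR-142-5p was at 30.1 in L7 and 46.3 in L11, against a median of 82.1 in the other 18. bta-miR-150 was at 4.01 and 6.18, against 18.6. On few reads, bta-miR-451, at 12.0 and 18.5, against 11.2, and bta-miR-223, at 3.01 and 6.18, against 1.72, were higher. bta-miR-144 was at 0 in both, against 0. Of the epithelium miRNAs, only bta-miR-205 was below that median in L7, at 11.0 against 21.5. L11 did not share the high epithelium level of L7. Each of its epithelium miRNAs was below the median of the other 18, with bta-miR-375 at 8012 against 10749 and bta-miR-200a at 5770 against 6299. Of the muscle miRNAs, bta-miR-143 was at 109 in L7 and 154 in L11, against 197, and bta-miR-1 at 45.1 and 15.4, against 60.1. On few reads, bta-miR-133a went the other way, at 8.02 and 21.6, against 5.77. bta-miR-145, also on few reads, was at 0 and 3.09, against 1.17. By RT-PCR of marker mRNAs, the study detected no RNA of leukocytes, epithelial cells or germ cells in the samples it tested. It does not say whether L7 and L11 were among them. The part of other cells in the miRNA levels of L7 and L11 was not tested here.

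bta-miR-192 had a median of 2250 in HF bulls, from 1517 in H17 to 3547 in H12. In LF bulls its median was 2684, from 964 in L11 to 3105 in L13. bta-miR-194 was steadier, with a median of 1113 in HF bulls, from 781 in H17 to 1337 in H9. In LF bulls its median was 1002, from 846 in L7 to 1601 in L13. Its SD of 0.25 on the log2 scale ranked 150 of 158 from the most variable, whereas that of bta-miR-192, 0.58, ranked 39. The genes of both miRNAs are neighbours, but the equality of their spreads was not tested. bta-miR-192 exceeded bta-miR-194 in 20 of 20 bulls, by between 1.10 times in L11 and 3.47 times in H12. The log2 ratio of bta-miR-192 to bta-miR-194 averaged 1.04 ± 0.53 in HF against 0.99 ± 0.57 in LF bulls (SD, n = 10 each). These means were 0.053 apart (p = 0.82 by a two-sided permutation test, adjusted p = 0.87 over the 3 ratios).

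bta-miR-215, which shares the seed of bta-miR-192, was rare. Its median was 7.83 in HF bulls, from 2.28 to 19.3 in H9, and 7.14 in LF bulls, from 0 in L11 to 22.2 in L18. Its values rest on at most 28 reads. In the 19 libraries with a read of it, bta-miR-192 was between 82.5 and 694 times as abundant, with a median of 349. Because the 2 mature miRNAs are closely similar, some reads could be assigned to the wrong one, and the level of bta-miR-215 is uncertain for that reason. The log2 ratio of bta-miR-192 to bta-miR-215 averaged 7.84 ± 0.91 in HF against 8.28 ± 0.80 in LF bulls (SD, n = 10 each), with HF minus LF at -0.43 (p = 0.27 by a two-sided permutation test, adjusted p = 0.81 over the 3 ratios). The LF mean includes L11, which had no read of bta-miR-215 and whose ratio of 9.91 is set by the pseudocount, and without L11 the value was -0.25.

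HF and LF bulls were compared for all 435 miRNAs that reached a normalized count of 1 in more than 10 bulls, with limma on log2(normalized count + 1). All 10 rows of the brain- and liver-enriched miRNAs passed this filter. At an unadjusted p under 0.05 and a fold change over 1.5, 0 of the 9 distinct profiles were called, against 9 of all 435 miRNAs (2.07%), of which 4 were higher and 5 lower in HF bulls (3 and 7 in CPM without a TMM factor). At an unadjusted p under 0.05 alone, limma called 0 of the 9 profiles, against 15 of 435 (3.45%). No miRNA had an adjusted p under 0.05 in limma. The quasi-likelihood test of edgeR on the recovered reads of 19 bulls (all but H6) also called 0 of the 9 with both criteria, against 16 of 435 (3.68%). With so low a background, a count of 0 among 9 does not set these miRNAs apart from the rest. Their median absolute log2 fold change was 0.19, and that of all 435 was 0.20. 6 of the 9 profiles had a higher and 3 a lower fitted mean in HF bulls in limma, but bta-miR-138 changed sign in the count tests and bta-miR-194 in CPM without a TMM factor.

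The fold change was estimated most closely for the abundant miRNAs. For bta-miR-9-5p it was -0.056 on the log2 scale (95% interval -0.33 to 0.21, adjusted p = 0.96 in limma). For bta-miR-9-3p it was -0.081 (95% interval -0.40 to 0.24), and for bta-miR-194 it was 0.060 (95% interval -0.22 to 0.34). These 3 were the profiles whose interval lay within a 1.5-fold change in both directions. For bta-miR-192 it was 0.11 (95% interval -0.39 to 0.61). For the rarer miRNAs the intervals were wide and included changes of more than 1.5-fold. For bta-miR-124a the estimate was 0.44 ± 0.30 (standard error, limma p = 0.16, adjusted p = 0.94). The estimates for bta-miR-137, bta-miR-215 and bta-miR-138 were 0.19 (95% interval -0.39 to 0.76), 0.54 (95% interval -0.40 to 1.49) and -0.25 (95% interval -1.16 to 0.67). Single bulls moved these values. The estimate for bta-miR-124a was 0.27 without L5, that for bta-miR-137 was 0.00084 without L7, and that for bta-miR-215 was 0.24 without L11.

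bta-miR-122 had the largest fitted difference of the 9 profiles, with HF above LF bulls by 0.69 ± 0.48 on the log2 scale (standard error, 95% interval -0.29 to 1.68, limma p = 0.16, adjusted p = 0.94). It rested on L7 and L11. Without these 2 bulls, a comparison chosen after seeing the data, it was -0.071 (unadjusted p = 0.73 in limma), where the mean level was 1688 ± 549 (SD, n = 10) for HF against 1764 ± 522 (SD, n = 8) for LF bulls.

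**Figure D4:**
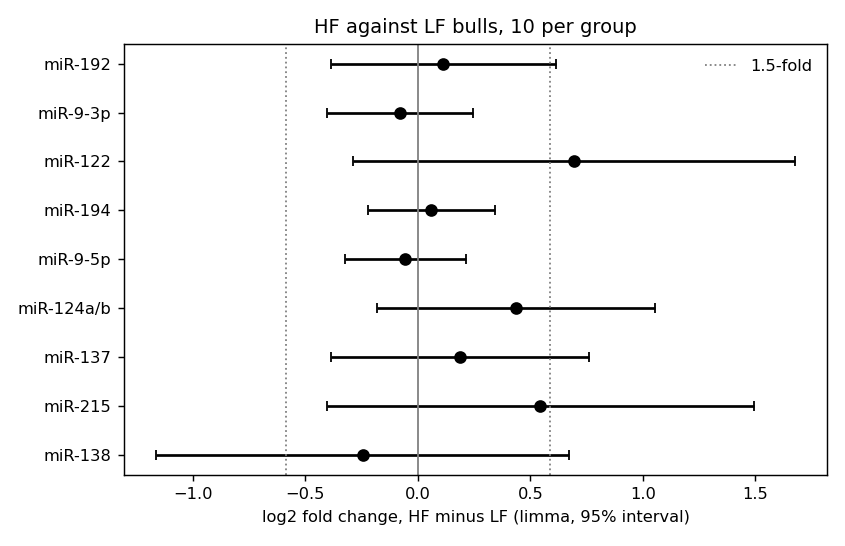
HF against LF for the 9 distinct profiles. The x axis is the log2 fold change, HF minus LF, points are limma estimates from 10 bulls per group, bars are 95% intervals, and dotted lines mark a 1.5-fold change. Every interval includes 0, and that of miR-122 is the widest among the 5 abundant miRNAs.

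Relations between members across bulls were examined for the 7 profiles with a read in every library and a median of at least 10 reads, which gave 21 pairs. The 2 arms of miR-9 had r = 0.42 (permutation p = 0.063) and rho = 0.44 (permutation p = 0.051), with adjusted p = 0.22 and 0.36 over the 21 pairs, and r = 0.36 without the 2 bulls farthest from the median of bta-miR-9-5p. bta-miR-192 and bta-miR-194 had r = 0.37 (permutation p = 0.11, adjusted p = 0.27) and rho = 0.42 (permutation p = 0.069, adjusted p = 0.36), and r = 0.31 without the 2 farthest. bta-miR-122 and bta-miR-192 had r = 0.51 (permutation p = 0.016, adjusted p = 0.14) but rho = 0.099 (permutation p = 0.68, adjusted p = 0.86), and r fell to -0.15 without the 2 farthest bulls, L7 and L11, on which it rested. No pair within the brain or the liver and gut set had an adjusted p under 0.05.

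The 1 pair under an adjusted p of 0.05 was bta-miR-124a with bta-miR-192, which ran opposite to each other. Over the 20 bulls r was -0.71 (permutation p = 0.00038, adjusted p = 0.0080) and rho -0.71 (permutation p = 0.00080, adjusted p = 0.017), and r was -0.80 without the 2 bulls farthest from the median of bta-miR-124a. With any 1 bull left out r lay between -0.75 and -0.66. In CPM without a TMM factor r was weaker, at -0.63 (permutation p = 0.0026), with rho -0.68 (permutation p = 0.0012). In the 10 HF bulls r was -0.80 (permutation p = 0.0046) and rho -0.84 (permutation p = 0.0040). In the 10 LF bulls r was -0.78 (permutation p = 0.0064) and rho -0.53 (permutation p = 0.12), so by rank the relation did not pass 0.05 among LF bulls. bta-miR-192 had no bull between 10.87 and 11.23 on the log2 scale. Below this gap, in 9 bulls, r was -0.094, and above it, in 11 bulls, r was -0.19, but these sets were divided at a level of bta-miR-192 chosen after its values were seen and span a narrower range, so nothing is read from them. Both levels are parts of one library. They also ran with the first principal component over the 158 miRNAs with at least 10 reads in every bull. Its rho was -0.58 with bta-miR-124a and 0.90 with bta-miR-192. With the log10 of reads in a library, bta-miR-124a had rho -0.43 (permutation p = 0.058) and bta-miR-192 rho 0.39 (permutation p = 0.093). Adjusted over the 7 profiles, both had p = 0.22. Without the shallowest libraries, H17 and L11, r between the 2 miRNAs was -0.73. The part of that component and of depth in the relation was not tested.

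**Figure D5:**
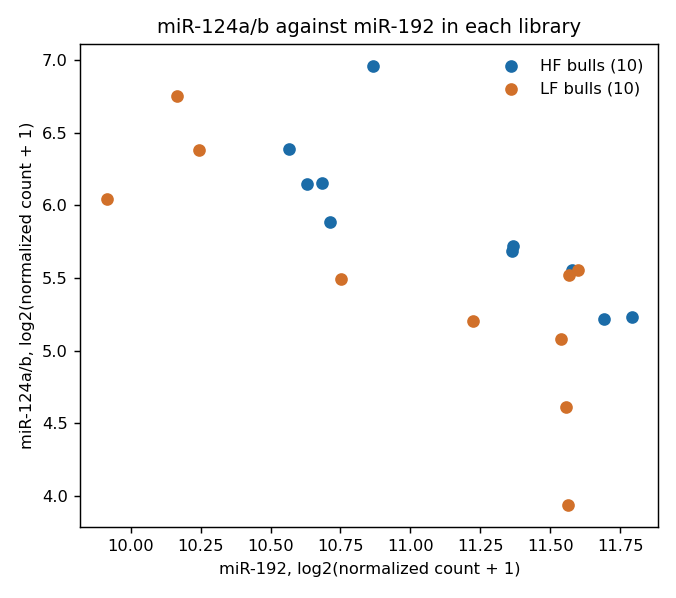
miR-124a/b against miR-192 in each library. Both axes are log2(normalized count + 1), each point is 1 bull (HF blue, LF orange), and no bull lies between 10.87 and 11.23 on the x axis. The level of miR-124a/b is lower in bulls with more miR-192, with r = -0.71 over the 20 bulls.

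The level of bta-miR-192 followed a wider pattern in the libraries. Its rank correlation across the 20 bulls was over 0.7 with 18 of the 157 other miRNAs with at least 10 reads in every bull, and under -0.7 with 4. As a measure of likeness, with no test since the highest of many were taken, the most similar to bta-miR-192 were bta-miR-151-5p (rho 0.90) and bta-miR-30c (rho 0.90). For the other members the best matches were weaker. They were bta-miR-1584-5p (rho 0.72) and bta-miR-2468 (rho 0.68) for bta-miR-9-3p, bta-let-7a-3p (rho 0.61) and bta-miR-660 (rho 0.58) for bta-miR-9-5p, and bta-miR-411a (rho 0.66) and bta-miR-95 (rho 0.62) for bta-miR-122. Those of bta-miR-194 were bta-miR-16b (rho 0.65) and bta-miR-11986b (rho 0.60). bta-miR-124a had bta-miR-1584-5p at rho 0.68 after its identical partner, and bta-miR-137 had bta-miR-2285bp (rho 0.65) and bta-miR-6534 (rho 0.61). No member other than that partner was among these matches, which were sought among 294 miRNAs over 20 bulls. The points share library depth and preparation.

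Other miRNAs known from the same tissues were counted for comparison. All 16 other brain-associated names were in the table, 12 were tested and 0 were called in either direction at an unadjusted p under 0.05 and a fold change over 1.5. bta-miR-128, bta-miR-7 and bta-miR-132 were the highest, at 9927 ± 3398, 8111 ± 2970 and 720 ± 225 (SD, n = 20), so that the first 2 exceeded every member. Of 9 other names from liver, gut or kidney, 8 were in the table, 5 were tested, and 1 was called higher in HF bulls, bta-miR-885, beside 9 of all 435 miRNAs called (2.07%). It had a log2 fold change of 0.93 (p = 0.042, adjusted p = 0.94 in limma) at a level of 3.51 ± 2.73 (SD, n = 20). This call was lost with a pseudocount of 0.5 or 5 and in CPM without a TMM factor. It was also lost without L7 and L11 together, and in 13 of 20 fits that left out 1 bull. With the pseudocount of 5 only the fold change fell short (p = 0.034 in limma). The call held in edgeR's quasi-likelihood test (p = 0.022), its likelihood ratio test (p = 0.0085) and DESeq2 (p = 0.028). In limma it held with DESeq2 size factors in place of the TMM factor, with no filter, and without H17 and L11. bta-miR-148a, bta-miR-204 and bta-miR-101 were the highest of that list, at 17944 ± 3607, 7596 ± 3664 and 5583 ± 1008 (SD, n = 20). The median log2 fold change was 0.051 for the brain list and 0.0067 for the other, against 0.0051 for all 435 miRNAs.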

How the data were processed

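Per the labels and the study's methods, the authors trimmed the reads (Cutadapt), selected them by length and against other short RNAs, mapped them with Bowtie (build ARS-UCD1.2 plus Y) and quantified mature miRBase miRNAs with miRDeep2. The deposited signal for a miRNA in a library is its reads, scaled to library size and to a TMM factor. Reads were recovered by dividing each library's values by that of 1 read. Of the values above 0, 95.0% were whole within 0.01 reads, and all values of the members were. In H6 the smallest values were fractions of a read, so H6 was left out of the count tests, which used 19 bulls.

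A miRNA was left out of the fits if 10 or more of the 20 bulls had it below a normalized count of 1. limma (version 3.58.1, R 4.3.3, with a variance trend) was fitted to log2(normalized count + 1), HF minus LF, with Benjamini-Hochberg adjustment over the 435 miRNAs left. A fold change on this scale understates the change of rare miRNAs. edgeR (version 4.0.16) and DESeq2 (version 1.42.0) were alternatives. Permutation tests used 100000 resamples (scipy 1.17.1, numpy 2.4.6) or, under 10 values, all permutations. Nothing says whether libraries were prepared together, so p-values measure the spread between bulls, batches included.

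Groups came from the labels. The members and lists were chosen with earlier results of these data known. Named are all members, the 2 miRNAs most like each member with a read in every library, and of 2 lists of other tissue miRNAs those called and the 3 highest. bta-miR-1306 and the bulls L7 and L11 were singled out after their values were seen. Neighbouring genes were taken from RefSeq (ARS-UCD2.0).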

Additional observations from a re-analysis of the deposited data

Results flagged for a closer look

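In each group of 10 bulls, the highest and lowest bull were compared with the others by Dixon's ratio (distance to the next bull over the range of the 10 bulls) on the log2(normalized count + 1) scale. Of 18 groups (9 profiles in HF and in LF), 1 was above the 95% critical value, where 0.9 would be expected by chance alone. It was bta-miR-137 in LF bulls, in which L7 was lowest with a ratio of 0.556. L7 had 3 reads of bta-miR-137, a normalized count of 3.01, while the other LF bulls lay at 9.61 or more. This is the bull with the lowest bta-miR-122 of all 20. The low bta-miR-122 of L7 and L11 did not exceed the critical value, since each of the 2 is the other's nearest neighbour (ratio 0.123 for L7).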

How the results depend on the processing

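The number of miRNAs past an unadjusted p of 0.05 and a fold change of 1.5 was 9 in limma. It was 4 with a pseudocount of 5, 15 with no filter, 0 with at least 10 reads in every bull (5 at an unadjusted p under 0.05, with 158 miRNAs tested), 16 with edgeR's quasi-likelihood test, 17 with its likelihood ratio test and 16 with DESeq2. With 1 bull left out in turn it lay between 7 and 15, and it was 15 without H6 and 14 without L1, L11 or L13. The count tests lack H6 too. It was 13 without L7 and L11 and 11 without H17 and L11. No member was called in any of these fits. The log2 fold change of bta-miR-138, -0.25 in limma, turned to 0.11, 0.15 and 0.019 in the 2 edgeR tests and DESeq2, and to 0.042 without H17 and L11 (added after seeing the data). That of bta-miR-122 was -0.071 without L7 and L11, between 0.32 (without L7) and 0.84 with 1 bull left out, 0.39 without L11, and between 0.26 and 0.31 in the count tests. That of bta-miR-194 was -0.0024 in CPM without a TMM factor, and that of bta-miR-192 between -0.0092 (without L11) and 0.18 with 1 bull left out. With 1 bull left out it lay between 0.27 and 0.58 for bta-miR-124a, between 0.00084 and 0.30 for bta-miR-137, between -0.40 and -0.088 for bta-miR-138 and between 0.24 and 0.74 for bta-miR-215. With 1 bull left out, the difference in the log2 ratio lay between -0.032 and 0.074 for the arms of miR-9, between -0.042 and 0.14 for bta-miR-192 to bta-miR-194, and between -0.57 and -0.25 for bta-miR-192 to bta-miR-215. 8 of the 10 rows had a read in every library, or 8 to 9 with 1 bull left out, and 5 had at least 10 reads. The order of levels was the same under the 2 other pseudocounts, in CPM and without each bull. The number of differing pairs was 6 in each fit that left out 1 bull, but which pairs these were was not compared. The causes were not tested. HF and LF bulls were different animals, and the labels pair none of them, so no paired analysis was made. The depth of H17 and L11 limits what can be seen of bta-miR-137, bta-miR-138 and bta-miR-215.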

Other observations

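bta-miR-129 and bta-miR-129-5p, 2 further rows with the same value in all 20 bulls, were highest of all bulls in L7 and L11, at 33.1 and 27.8, the 2 bulls with the least bta-miR-122. The other 18 bulls lay between 0 and 23.0. miR-129 is known from brain, but some other miRNAs of the brain list ran the other way. bta-miR-132 was lowest of all bulls in these 2, at 478 in L7 and 340 in L11, against at least 491 in the other 18. bta-miR-7, bta-miR-153, bta-miR-212, bta-miR-218 and bta-miR-383 were lowest of all bulls in L11, though not in L7. miR-129 was chosen after its values were seen. Its level in L11 rests on few reads, since 3 reads there are a normalized count of 9.27.

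The first principal component over the 158 miRNAs with at least 10 reads in every bull held 31.8% of the variance between libraries. bta-miR-192, which is one of the 158, followed it with rho 0.90 over 20 bulls, against 0.29 for bta-miR-194 and -0.58 for bta-miR-124a, which is not among them. These are descriptions with no test.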
